A study of Rattus norvegicus with 20 samples.

Results

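The comparison described here set the livers of 3 rats given tricresyl phosphate (TCP) at 248.6 mg/kg against the livers of 5 control rats, on 8 of the 20 arrays of a dose series. The members were taken by the dose in their titles, and no measured value was used to choose them. TCP is an organophosphate ester made from cresols and added to plastics, hydraulic fluids and engine oils. Male Harlan Sprague-Dawley rats received it in corn oil by oral gavage, 4 doses on consecutive days, and the control rats received corn oil alone on the same schedule. The other 12 arrays came from rats given 62.3, 124.5, 497.3 or 994.6 mg/kg, with 3 rats per dose. RNA from pieces of the left liver lobe was labelled and hybridised to 1-colour Affymetrix arrays, with 1 array per rat, so differences between animals are part of the spread within a group. The labels used here give no age and name no batch.

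The liver clears fat-soluble foreign compounds in steps. Cytochrome P450 enzymes, esterases and epoxide hydrolases expose a polar group, transferases attach glucuronic acid, sulfate or glutathione to it, and export pumps move the product into bile or blood. The nuclear receptors CAR (Nr1i3) and PXR (Nr1i2) switch on many of these genes after binding or sensing a drug, and the transcription factor NRF2 switches on others under oxidative or electrophile stress. Organophosphates are also known as inhibitors of serine esterases such as butyrylcholinesterase (Bche) and neuropathy target esterase (Pnpla6).

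Correlations between arrays over all genes ran from 0.994 to 0.995 within each group and from 0.992 to 0.995 between them, a range too narrow to show a difference of a few genes. The tissue label was checked against hepatocyte markers: albumin (Alb) averaged 15.34 on the log2 scale in control and 15.35 at 248.6 mg/kg, near the highest value on the arrays (15.4), and Hnf4a, well below it, 12.55 and 12.52. A measure of RNA quality did not overlap between the groups, though its difference did not pass after adjustment. For the GAPDH control transcript, the 3' probe set exceeded the 5' probe set by 1.37 ± 0.18 in control (SD, n = 5, log2 units) and 0.99 ± 0.12 at 248.6 mg/kg (SD, n = 3), with all treated arrays (0.86 to 1.10) below all controls (1.13 to 1.56). The difference of -0.39 had an exact two-sided permutation p of 0.0357, the smallest that 56 splits allow, and 0.0714 after adjustment over both control transcripts. For beta-actin the difference was -0.36 (exact two-sided permutation p = 0.214, adjusted 0.214). At the other doses the GAPDH 3' probe set exceeded the 5' probe set by 0.61 to 1.11, below all controls, apart from 2.58 in replicate 2 of 124.5 mg/kg.

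The comparison with control asked which liver transcripts had changed at this middle dose. The genes called higher were mostly enzymes and a pump of foreign-compound clearance: Abcc3, Ces2c, Gsta3, Ugt2b1, Akr7a3 and Ephx1, together with the amyloid precursor protein gene App, and 1 gene was called lower, the taurine transporter Slc6a6. The mean increases ran from 0.63 to 2.02 on the log2 scale, that is from 1.55-fold to 4.06-fold, and Slc6a6 fell by 0.71. Calls needed a limma p under 0.05 after Benjamini-Hochberg adjustment over all 14217 genes. In all, 8 genes were called, which is 0.0563% of the genes tested, with 7 higher (0.0492%) and 1 lower (0.00703%). At an unadjusted p under 0.05 there were 945 genes (6.65%), 573 of them higher (4.03%) and 372 lower (2.62%). The 3 treated arrays lay all above or all below the 5 control arrays in 1041 genes (7.32%), among them all 8 called genes. The median change over all genes was 0.0102.

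**Figure D1:**
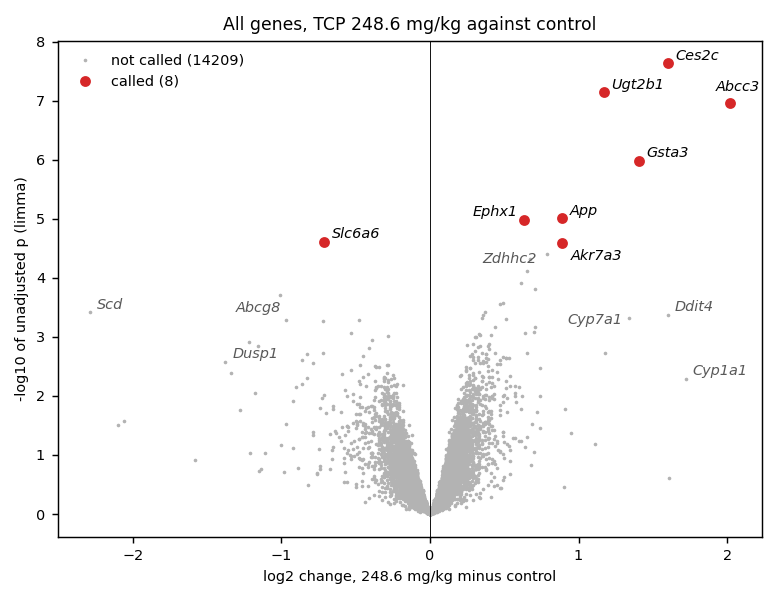
Log2 change of 248.6 mg/kg minus control (x axis) against -log10 of the unadjusted limma p (y axis) for each of 14217 genes. Red points are the 8 called genes and grey points the rest, of which 7 are labelled in grey. The called genes lie at changes of 0.63 to 2.02 and, for Slc6a6, -0.71, while Scd, at -2.29, was not called.

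Abcc3, a pump that exports glucuronides and bile acid conjugates from hepatocytes toward blood, had the largest called change. Its log2 values were 6.36, 6.92, 6.61, 6.92 and 6.66 in the control rats and 8.70, 8.19 and 9.27 in the treated rats. Every treated array lay above every control array, with treated replicate 3 the highest and replicate 2 the lowest. Abcc3 rose by 2.02 ± 0.24 (limma SE), or 4.06-fold with a 95% interval of 2.85 to 5.79 (adjusted p = 0.000525).

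Ces2c, a carboxylesterase that hydrolyses ester drugs and lipids, had the smallest p of all genes. Its values were 8.98, 8.90, 8.76, 8.94 and 9.04 in control and 10.56, 10.51 and 10.51 at the dose. The groups did not overlap, and the 3 treated rats were nearly equal (SD 0.03). Ces2c rose by 1.60 ± 0.18, or 3.04-fold (95% interval 2.36 to 3.92, adjusted p = 0.00033).

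Gsta3 and Ugt2b1 encode conjugating enzymes, an alpha class glutathione transferase and a glucuronosyltransferase. Gsta3 had values of 7.97, 7.75, 8.16, 7.55 and 8.59 in control and 9.33, 9.09 and 9.84 at the dose. The control rats were spread over more than 1 log2 unit, and the lowest treated rat still lay above the highest of them. Gsta3 rose by 1.41 ± 0.20, or 2.66-fold (adjusted p = 0.00375). Ugt2b1 had values of 12.20, 12.32, 12.25, 12.72 and 12.89 in control and 13.60, 13.62 and 13.71 at the dose. Control replicates 4 and 5 stood above the other controls, and all treated rats lay above both. Ugt2b1 rose by 1.17 ± 0.14, or 2.25-fold (adjusted p = 0.000514).

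Ephx1, microsomal epoxide hydrolase, opens reactive epoxides to diols, and Akr7a3, an aldo-keto reductase and known NRF2 target, reduces reactive dialdehydes such as that of aflatoxin. Ephx1 had values of 12.92, 12.65, 12.78, 12.57 and 13.08 in control and 13.41, 13.48 and 13.41 at the dose. The 3 treated rats lay close together and above all controls, and Ephx1 rose by 0.63 ± 0.11, or 1.55-fold (adjusted p = 0.0248). Akr7a3 had values of 11.50, 11.33, 11.35, 11.47 and 11.08 in control and 11.95, 12.10 and 12.67 at the dose. Treated replicate 3 stood apart from the other treated rats, and all 3 lay above the controls. Akr7a3 rose by 0.89 ± 0.16, or 1.86-fold (adjusted p = 0.0464).

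App encodes a membrane protein present in many tissues. Its values were 10.89, 11.23, 11.41, 10.92 and 11.06 in control and 12.16, 11.76 and 12.05 at the dose. The groups did not overlap, and App rose by 0.89 ± 0.15, or 1.85-fold (adjusted p = 0.0248). Among the other probe sets of App, adjusted over 31042 probe sets, 1 rose by 1.10 ± 0.14 (adjusted p = 0.00167) and another had a change of 0.55 ± 0.16 (adjusted p = 0.558). Slc6a6, which carries taurine, the amino acid used to conjugate bile acids, into cells, had values of 10.31, 10.02, 10.16, 10.39 and 10.55 in control and 9.43, 9.55 and 9.75 at the dose. All treated rats lay below all controls, and Slc6a6 fell by 0.71 ± 0.13, to 0.613 of the control level (95% interval 0.509 to 0.737, adjusted p = 0.0464). A second Slc6a6 probe set had a change of -0.75 ± 0.31 (adjusted p = 0.766).

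**Figure D2:**
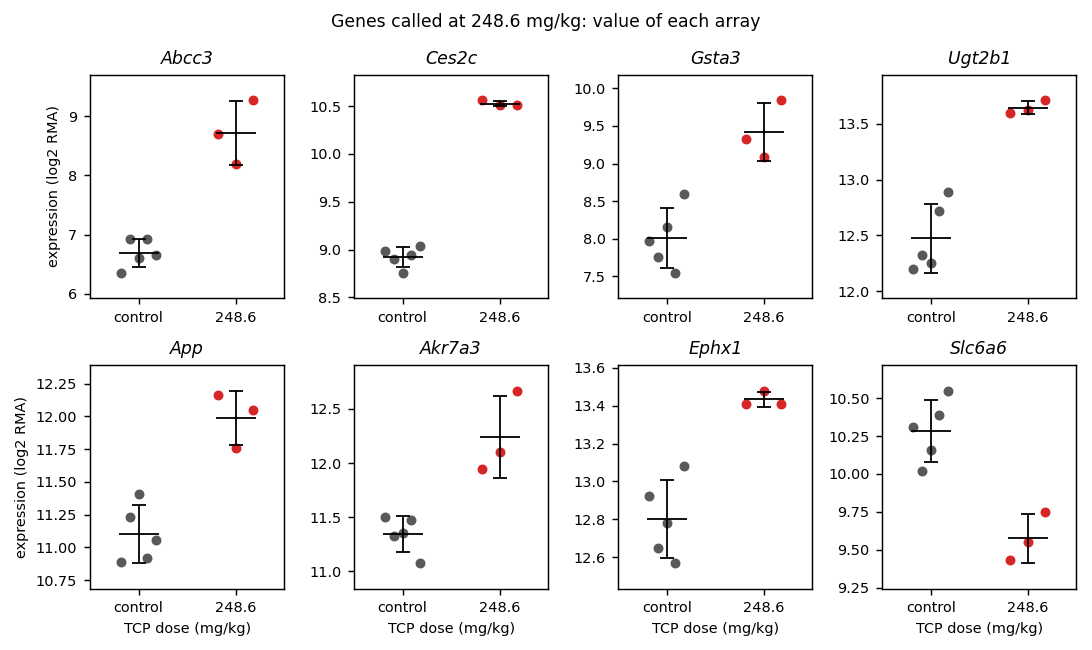
Log2 expression (RMA, y axis, a separate scale per panel) of the 8 called genes in each control array (grey, n = 5) and each array of 248.6 mg/kg (red, n = 3). Horizontal lines are group means and bars ± SD. In every panel the treated points lie entirely above the control points, or below them for Slc6a6.

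The calls of Abcc3, Ces2c and Ugt2b1 held in all 20 settings tried. Gsta3 was not called without treated replicate 3 (adjusted p = 0.0821) or with only the 8 arrays in the fit (0.0744). App was called in 12 of the 20 settings, Ephx1 in 11, and Slc6a6 and Akr7a3 in 5 each. App was not called without control replicate 1, 4 or 5 or treated replicate 1 or 3, and Ephx1 was not called without control replicate 2, 3 or 4 or any 1 treated replicate. Slc6a6 was called only when control replicate 2 was the array left out, and Akr7a3 only when that array was treated replicate 1. With the GAPDH 3' to 5' difference as a covariate, 4 genes were called. App then had a change of 0.88 (adjusted p = 0.0676), Ephx1 0.55 (0.0517), Slc6a6 -0.75 (0.0574) and Akr7a3 0.91 (0.0902), against 0.89, 0.63, -0.71 and 0.89 without the covariate. Signal shared between close relatives in the Ces2, Gsta and Ugt2b families was not tested.

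RefSeq promoter windows (GRCr8, 250 bases before to 50 after a gene's start) were found for 7 of the 8 called genes. A few are shown because binding motifs of the receptors named above, whose known targets are among the called genes, can be searched in them. The letters searched on both strands were AGTTCA, a core motif of CAR and PXR sites, which appears as TGAACT when it lies on the strand opposite to the one printed, and TGACNNNGC, the core of the antioxidant response element bound by NRF2. These genes had 9 windows, since Gsta3 and Ephx1 had 2 each. AGTTCA was present in 4 of the 9 windows, against 14.5% of all 33469 windows. TGACNNNGC was also present in 4 of the 9, against 12.1% of all windows. Every window shown holds a match. Neither motif was in the window of Akr7a3, a known NRF2 target, or in the first window of Ephx1. AGTTCA was in neither window of Ephx1, which is listed as a CAR and PXR target. No matches overlapped, and a match is a description of letters only. Capitals mark the matches, and sequences run 5′ to 3′ on the gene's strand. The window of Ces2c lies at chr1:270376951-270377250 on the plus strand, with the match beginning 125 bases before the start, and that of Ugt2b1 at chr14:21378632-21378931 on the plus strand, with its match 47 bases before the start.
Ces2c: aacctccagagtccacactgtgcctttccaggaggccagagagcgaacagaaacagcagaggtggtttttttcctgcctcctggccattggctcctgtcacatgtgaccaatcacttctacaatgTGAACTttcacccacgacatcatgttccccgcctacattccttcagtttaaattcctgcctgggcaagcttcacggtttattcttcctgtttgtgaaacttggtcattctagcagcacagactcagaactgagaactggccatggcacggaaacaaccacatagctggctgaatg
Ugt2b1: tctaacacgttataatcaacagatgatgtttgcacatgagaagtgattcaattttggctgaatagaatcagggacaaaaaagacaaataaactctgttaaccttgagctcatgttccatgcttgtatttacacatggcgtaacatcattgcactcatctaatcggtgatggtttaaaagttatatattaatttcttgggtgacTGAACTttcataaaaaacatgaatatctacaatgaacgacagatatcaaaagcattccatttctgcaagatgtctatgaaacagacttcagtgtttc
Cyp3a23-3a1, a standard PXR target whose groups did not overlap but which did not pass the test, is shown beside them (chr12:14398754-14399053, minus strand). Its matches form a direct repeat with 3 bases between the copies, an arrangement known to be bound by PXR with its partner RXR.
Cyp3a23-3a1: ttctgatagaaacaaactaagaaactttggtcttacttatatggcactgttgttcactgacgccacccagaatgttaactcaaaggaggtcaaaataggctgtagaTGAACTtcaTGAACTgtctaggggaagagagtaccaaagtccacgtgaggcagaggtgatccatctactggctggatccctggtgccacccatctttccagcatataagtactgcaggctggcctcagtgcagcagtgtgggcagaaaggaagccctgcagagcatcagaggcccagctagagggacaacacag
The second window of Ephx1 (chr13:95263068-95263367, minus strand) held the antioxidant motif 57 bases before the start. The window of Slc6a6 (chr4:125752252-125752551, plus strand), the called gene that fell, held both motifs, 101 bases (antioxidant) and 19 bases (receptor) before the start.
Ephx1: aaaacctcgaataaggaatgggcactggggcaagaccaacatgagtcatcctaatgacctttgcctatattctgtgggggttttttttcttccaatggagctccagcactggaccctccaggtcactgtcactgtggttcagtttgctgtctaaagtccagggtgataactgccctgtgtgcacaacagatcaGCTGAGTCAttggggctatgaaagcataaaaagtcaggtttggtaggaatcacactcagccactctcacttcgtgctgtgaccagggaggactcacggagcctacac
Slc6a6: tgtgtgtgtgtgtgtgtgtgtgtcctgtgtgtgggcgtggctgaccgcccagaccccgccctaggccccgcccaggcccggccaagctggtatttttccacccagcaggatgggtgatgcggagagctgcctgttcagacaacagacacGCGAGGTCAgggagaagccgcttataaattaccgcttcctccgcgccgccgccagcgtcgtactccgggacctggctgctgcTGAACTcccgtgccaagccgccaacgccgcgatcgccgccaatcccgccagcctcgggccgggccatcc

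Genes known as CAR and PXR targets lay mostly above control, 15 of the 19 measured. Of these 19, 4 were called, all higher (Abcc3, Ces2c, Ugt2b1 and Ephx1), against 0.0492% of all genes. In 8 of the 19 (42.1%) all treated arrays lay above all controls, against 4.25% of all genes, and 1 of the 19, Cyp2b3, lay below all controls (3.07% of all genes), at -0.12 ± 0.06. The list was chosen with earlier results of these data known, so these shares are a description and not a test. The median change of the list was 0.27, against 0.0102 over all genes, and it was 0.16 without treated replicate 1 and 0.12 with replicate number as a block, a fit that left out control replicates 4 and 5. Aldh1a1, a retinaldehyde dehydrogenase, did not pass the test at 0.67 ± 0.13 (adjusted p = 0.0687), with treated values of 12.96, 12.85 and 13.21 above all controls (12.00 to 12.59). Cyp3a23-3a1, the main inducible P450 of the CYP3A family, had control values of 13.56, 13.42, 13.13, 12.52 and 13.25 and treated values of 13.84, 13.84 and 13.79. The treated rats were nearly equal and above all controls, and its change of 0.65 ± 0.18 did not pass (adjusted p = 0.485). No call was made among the receptors and partners of this response: PXR (Nr1i2) differed by -0.09 ± 0.14, CAR (Nr1i3) by 0.04 ± 0.25, the P450 reductase Por by 0.01 ± 0.24 and the heme synthesis enzyme Alas1 by 0.22 ± 0.18. Their 95% intervals were -0.38 to 0.21, -0.48 to 0.56, -0.48 to 0.50 and -0.16 to 0.61, and changes within those bounds could not be told from none.

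Other lists of clearance genes held at most 1 call each. Of 22 NRF2 targets, Akr7a3 was called (0.0492% of all genes were called higher) and 5 lay above all controls (22.7%, against 4.25% of all genes). The list median was 0.15, and 0.07 with that block. Nqo1, the quinone reductase often used as an NRF2 marker, had 0.62 ± 0.22 (adjusted p = 0.603), and Gclc, the rate-limiting enzyme of glutathione synthesis, had -0.14 ± 0.16 (0.926). Of 19 glutathione transferases, Gsta3 was called and 4 lay above all controls (21.1%, against 4.25% of all genes). The other 3 were the theta class Gstt3 (0.70 ± 0.18, adjusted p = 0.392) and Gstt1 (0.35 ± 0.11, 0.584) and the mu class Gstm1 (0.30 ± 0.10, 0.586). Of 19 genes of glucuronidation and sulfation, Ugt2b1 was called, and Ugt2a1, a second glucuronosyltransferase, had a change of 0.65 ± 0.13 (adjusted p = 0.0989), with treated values of 6.61 to 6.70 above the controls at 5.78 to 6.41. Of 27 PPAR-alpha targets none was called, and Acot2, a mitochondrial acyl-CoA thioesterase, had 0.71 ± 0.15 (adjusted p = 0.169).

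Cyp1a1, the P450 that marks activation of the aryl hydrocarbon receptor (AhR), was by far the highest in treated replicate 1, and replicate 3 also lay above all controls. Its values were 6.17, 6.05, 5.82, 6.01 and 6.13 in control and 10.17, 6.15 and 6.94 at the dose. Treated replicate 2 lay within the control range, and the change of 1.72 ± 0.54 did not pass (adjusted p = 0.583). Cyp1a2, a second AhR target, was also highest in treated replicate 1, with 14.18 against 13.56 and 13.57 in the other treated rats and 13.27 to 13.63 in control. Of 8 AhR targets measured, none was called and none was beyond all controls. Over all genes 7.32% were beyond all controls, so none in 8 is close to that share.

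**Figure D3:**
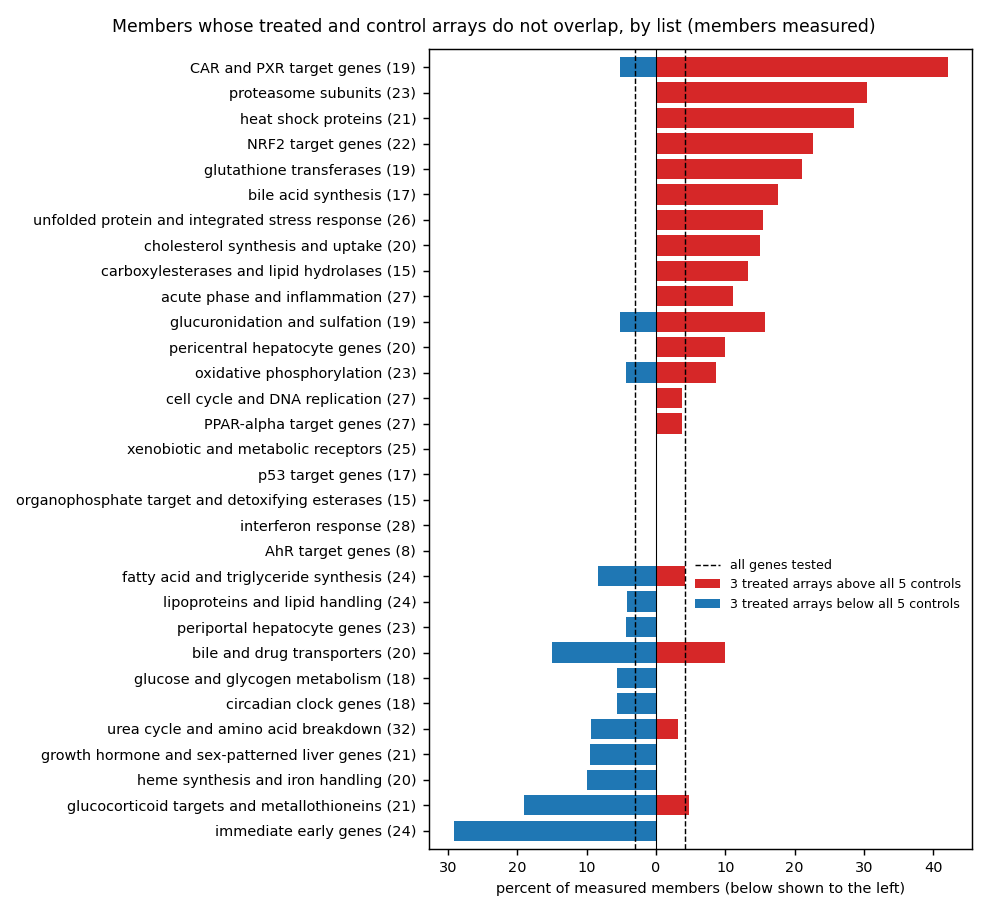
Percent of each list's measured members (x axis) whose 3 arrays of 248.6 mg/kg lay all above (red, to the right) or all below (blue, to the left) the 5 control arrays, for 31 gene lists with the number measured in brackets. Dashed lines give the same shares over all genes, 4.25% and 3.07%. The lists were chosen with earlier results of these data known. CAR and PXR targets (42.1% above) and immediate early genes (29.2% below) lie at the ends.

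In the list of organophosphate target and detoxifying esterases, which does not hold the called carboxylesterase Ces2c, no measured transcript passed the test. Acetylcholinesterase (Ache) was not analysed here. Of 15 target and detoxifying esterases measured, none was called, with changes from -0.14 to 0.45. None lay beyond all controls (7.32% of all genes did), and none reached an unadjusted p under 0.05 in limma (6.65% of all genes did). In a list of 15 genes, counts of none are close to those shares. Bche had control values of 6.23, 6.44, 6.62, 6.12 and 6.57 and treated values of 6.57, 6.35 and 6.58, a difference of 0.11 ± 0.12 (95% interval -0.16 to 0.37). Pnpla6 differed by -0.10 ± 0.08 (95% interval -0.26 to 0.06). Transcript level says nothing of esterase activity, which was not measured here. Of 15 carboxylesterases and lipid hydrolases, Ces2c was the 1 called gene, and the list median was 0.02.

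Several genes of bile acid, sterol and lipid handling had large changes that did not pass the test. Cyp7a1, which starts the main route from cholesterol to bile acids, had values of 10.61, 10.26, 9.70, 10.73 and 9.33 in control and 11.70, 11.65 and 11.04 at the dose. All treated rats lay above all controls, whose own range was 9.33 to 10.73, and the change was 1.34 ± 0.32, or 2.53-fold (adjusted p = 0.29). Cyp8b1, which makes the cholic acid branch of bile acids, had 0.49 ± 0.17 (adjusted p = 0.603), with treated values of 12.16 to 12.27 against 11.62 to 11.77. No gene of the 17 in bile acid synthesis was called, and 3 lay above all controls (17.6%, against 4.25% of all genes).

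Abcg5 and Abcg8 together form the pump that moves sterols into bile. Abcg8 had values of 6.97, 7.39, 7.29, 6.66 and 7.18 in control and 5.57, 6.45 and 6.35 at the dose, a difference of -0.97 ± 0.23 (adjusted p = 0.29). Abcg5 had values of 8.92, 9.46, 9.10, 8.09 and 8.99 in control and 6.90, 8.39 and 7.79 at the dose, a difference of -1.22 ± 0.32 (adjusted p = 0.445). In both genes treated replicate 1 was the lowest array, and for Abcg5 control replicate 4 overlapped the treated rats. Of 20 bile and drug transporters, Abcc3 was called (0.0563% of all genes were called), 2 lay above all controls (10%, against 4.25% of all genes) and 3 below (15%, against 3.07%).

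Scd, the desaturase that makes oleic acid, had the most negative change of all genes, and it did not pass. Its values were 11.11, 11.66, 11.91, 9.45 and 10.81 in control and 8.23, 8.92 and 8.94 at the dose. The groups did not overlap, but control replicate 4 lay far below the other controls, and the change of -2.29 ± 0.53 had an adjusted p of 0.29. Among 20 genes of cholesterol synthesis and uptake none was called, 18 had a change above 0 (53.5% over all genes), and the list median was 0.17, or 0.06 without treated replicate 3. Squalene epoxidase (Sqle) had the highest of them, 0.54 ± 0.17 (adjusted p = 0.581).

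Immediate early genes, which respond within minutes to growth factors and stress, lay below control in part of the list. None of 24 was called (0.0563% of all genes). In 7 of them (29.2%, against 3.07% of all genes) all treated rats lay below all controls: Dusp1, Dusp6, Myc, Junb, Zfp36, Ier2 and Nr4a1. Dusp6, a phosphatase that switches off ERK signalling, had values of 10.45, 10.75, 11.11, 10.82 and 10.92 in control and 9.42, 10.28 and 9.71 at the dose, a difference of -1.01 ± 0.22 (adjusted p = 0.195). Dusp1, a related phosphatase and glucocorticoid target, had values of 10.80, 10.25, 10.89, 10.00 and 9.94 in control and 8.93, 8.72 and 9.35 at the dose, a difference of -1.38 ± 0.40 (adjusted p = 0.498). A second Dusp1 probe set, of lower level (5.34 in control), differed by only -0.17 ± 0.30 (limma, adjusted p = 0.959 over probe sets). The other probe sets of Dusp6 differed by -0.78 ± 0.34 and -0.95 ± 0.17. The list's median was -0.10, and it was -0.72 over the members in the upper 50% of genes by mean level. Fos, Egr1 and Jun, the best known members, overlapped control, and Egr1 had a difference of -0.08 ± 0.47. Of 21 glucocorticoid targets and metallothioneins none was called and 4 lay below all controls (19%, against 3.07% of all genes), among them Dusp1, which is in both lists. Ddit4, an inhibitor of mTOR signalling in the same list, had treated values of 8.32, 7.69 and 10.18 against 6.78 to 7.64 in control. Its change of 1.60 ± 0.38 did not pass (adjusted p = 0.29), and replicate 3 was the highest treated array. Without treated replicate 2 the log2 change of Ddit4 was 2.12, and it was called (adjusted p = 0.0378). That left-out array held the lowest treated value (7.69), so the 10.18 of replicate 3 then weighed more in the treated mean.

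Proteasome subunit genes lay slightly above control. All 23 measured had a change above 0, from 0.01 to 0.31, none was called, and 7 lay above all controls (30.4%, against 4.25% of all genes). The median of 0.17 compares with an upper quartile of 0.0919 over all genes. Psmd4, a ubiquitin receptor of the regulatory cap, had values of 9.89, 9.73, 9.87, 10.01 and 9.78 in control and 10.16, 10.12 and 10.05 at the dose, a difference of 0.26 ± 0.09 (adjusted p = 0.593). Of 21 heat shock proteins 6 lay above all controls (28.6%, against 4.25% of all genes), and none was called. Among them were the mitochondrial chaperones Hspa9 (0.32 ± 0.11) and Hspd1 (0.24 ± 0.09). In the list for the unfolded protein and integrated stress response, 4 of 26 lay above all controls (15.4%, against 4.25% of all genes), and none was called. Atf4 (0.40 ± 0.17) and Manf (0.36 ± 0.10) were among these 4.

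Markers of most cell types, among them erythroid, sinusoidal endothelial and stellate cells, lay more often below control than above it at the dose. Above control were 1 of 7 erythroid, 1 of 7 neutrophil, 3 of 10 T or NK cell and 3 of 8 hepatocyte markers, against 53.5% of all genes. Only among cholangiocyte markers were more above control than below. Of 7 erythroid markers none was called, and 4 lay below all controls, as did 3.07% of all genes: the globins Hbb (-0.71 ± 0.25, adjusted p = 0.603) and Hba-a3 (-0.65 ± 0.24, 0.631), the erythroid heme enzyme Alas2 (-0.79 ± 0.23, 0.498) and the globin chaperone Ahsp (-0.26 ± 0.11, 0.731). Hbb had values of 13.18, 13.26, 13.21, 13.33 and 13.37 in control and 12.70, 12.67 and 12.32 at the dose. The summed level of the 7 markers was 13.70 to 13.91 in control and 12.95 to 13.20 in treated rats, without overlap. In pieces of whole liver, fewer cells of a type and less RNA per cell cannot be told apart. All 7 markers of sinusoidal endothelium were below control on average (median -0.20, none called), with summed levels of 12.74 to 13.04 in control and 12.29 to 12.86 at the dose. Of these 7, 1 lay below all controls, Pecam1 (-0.20 ± 0.14), as did 3.07% of all genes. Each was lowest in treated replicate 3 among the treated rats. Lyve1 had treated values of 10.79, 10.75 and 10.05 against 10.56 to 10.93 in control, so much of its difference came from that rat. Of 12 stellate cell and fibroblast markers 10 were below control (median -0.21, none called), with sums of 12.15 to 12.51 against 11.84 to 12.31. None of the 12 lay beyond all controls, against 7.32% of all genes. Among treated rats, Reln, Lrat, Col1a2, Col3a1 and Hgf were also lowest in replicate 3, and the other stellate markers in another replicate. Of 6 pancreatic acinar markers, Cela1 lay below all controls (-0.37 ± 0.12), and the other 5 were at low levels (Amy2a3 at 3.66) and overlapped control. Of 6 cholangiocyte markers 4 were above control (median 0.18, none called), with Krt19 above all controls (0.64 ± 0.33) and summed levels of 10.37 to 10.58 against 10.54 to 10.91. The summed level of 8 macrophage markers averaged 13.39 in control and 13.38 at the dose. The part of these markers in the immediate early gene values was not tested. With the GAPDH difference as a covariate the median of that list was -0.10, as without it. Most members overlapped control, so this median does not describe those that lay below all controls. The GAPDH difference did not overlap between the groups, so in these arrays RNA quality and dose cannot be told apart.

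**Figure D4:**
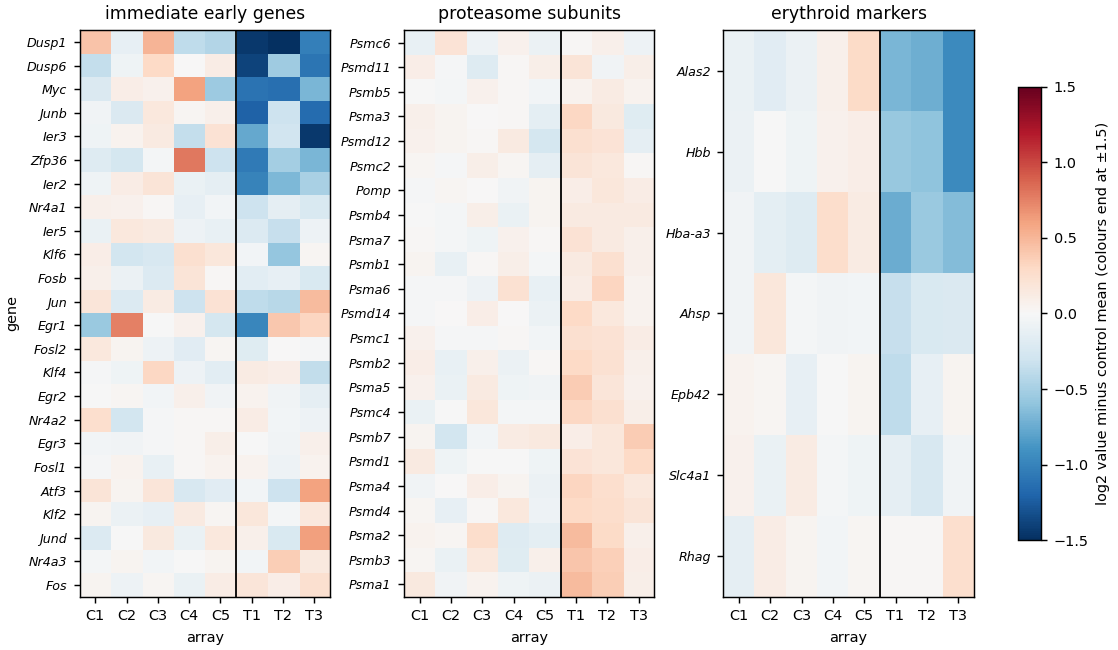
Log2 value minus the control mean (colour, ending at ±1.5) for immediate early genes (24), proteasome subunits (23) and erythroid markers (7), genes in rows by mean treated difference and arrays in columns (C1 to C5 control, T1 to T3 at 248.6 mg/kg). Low values stand in the treated columns of Dusp1, Dusp6, Myc and Junb and of the globins and Alas2, and proteasome colours in treated columns are mostly pale red, with changes up to 0.31.

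In other lists no gene was called. Of 28 interferon response genes, 17 p53 targets and 25 xenobiotic and metabolic receptors, none lay beyond all controls, against 7.32% of all genes. In lists of this size that share amounts to few genes. Cish, a target of growth hormone signalling, had -1.34 ± 0.41 (adjusted p = 0.571), with treated values of 6.91, 6.33 and 7.70 against 8.02 to 8.59 in control. Of 27 acute phase and inflammation genes 3 lay above all controls (11.1%, against 4.25% of all genes), and the acute phase protein Orm1 had 0.64 ± 0.16 (adjusted p = 0.392). Of 27 cell cycle genes 21 had a change above 0, as did 20 of 23 genes of oxidative phosphorylation (53.5% over all genes). Of 21 growth hormone and sex-patterned genes 2 lay below all controls (9.52%, against 3.07%), Cish among them. Zdhhc2, a protein palmitoyltransferase outside the lists, was the uncalled gene with the smallest p, with 0.79 ± 0.15 (adjusted p = 0.062) and treated values of 7.53, 7.57 and 7.72 against 6.54 to 7.04.

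The neighbouring doses placed 248.6 mg/kg in the series. No gene was called between 248.6 and 124.5 mg/kg (limma, 0% of 14217), where 343 genes (2.41%) had an unadjusted p under 0.05, and none between 248.6 mg/kg and the mean of 124.5 and 497.3 mg/kg (0%), where 398 (2.8%) did. Between 497.3 and 248.6 mg/kg 1 gene was called (0.00703%), and 638 (4.49%) had an unadjusted p under 0.05. It was Tnfaip3, an inhibitor of NF-kappaB signalling, which was 1.26 ± 0.19 higher at 497.3 mg/kg (adjusted p = 0.0474). Tnfaip3 had values of 7.14, 6.94 and 6.76 at 248.6 mg/kg and 7.89, 8.16 and 8.58 at 497.3 mg/kg, and its difference between 248.6 mg/kg and control was 0.03 ± 0.17. Leaving out any array of 248.6 mg/kg, or replicate 2 or 3 of 497.3 mg/kg, gave no called gene, and leaving out replicate 1 of 497.3 mg/kg gave 12.

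The doses share the control arrays, so their changes against control are given side by side. From 62.3 to 994.6 mg/kg the change of Abcc3 was 0.83, 0.87, 2.02, 2.46 and 2.86, and that of Ces2c 0.78, 0.88, 1.60, 2.07 and 2.92. Between 248.6 and 124.5 mg/kg, Abcc3 differed by 1.15 (95% interval 0.58 to 1.73) and Ces2c by 0.73 (0.32 to 1.14), neither called. Slc6a6 had -0.33, -0.89, -0.71, -1.53 and -2.25, and its difference between 497.3 and 248.6 mg/kg was -0.83 ± 0.14 (adjusted p = 0.0985). Akr7a3 had its highest mean at 248.6 mg/kg, with changes of 0.32, 0.37, 0.89, 0.40 and 0.49, and its difference between 497.3 and 248.6 mg/kg was -0.49 ± 0.18 (adjusted p = 1). Ugt2b1, with 0.87, 0.68, 1.17, 0.99 and 1.25, and Ephx1, with 0.40, 0.34, 0.63, 0.61 and 0.89, differed by -0.18 (95% interval -0.50 to 0.15) and -0.02 (-0.27 to 0.23) between 497.3 and 248.6 mg/kg. Gsta3 had 0.90, 0.92, 1.41, 1.65 and 1.72, and App 0.48, 0.56, 0.89, 1.09 and 1.40.

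**Figure D5:**
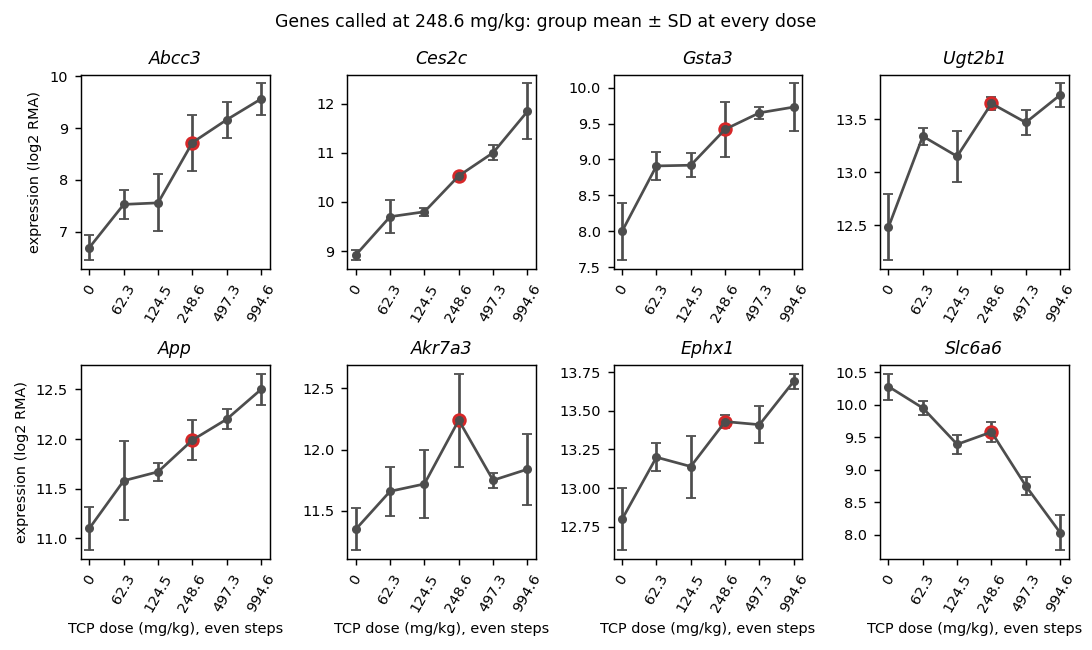
Mean log2 expression (RMA, y axis, a separate scale per panel) ± SD of the 8 genes called at 248.6 mg/kg, at each dose in even steps (x axis, mg/kg; n = 5 at 0 and n = 3 at each other dose). The red point marks 248.6 mg/kg. Abcc3, Ces2c, Gsta3, App, Ugt2b1 and Ephx1 have their highest mean at 994.6 mg/kg, Slc6a6 has its lowest there, and Akr7a3 peaks at 248.6 mg/kg with a mean of 12.24.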

How the data were processed

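Expression was measured on Affymetrix arrays in 20 rat livers. The log2 values were deposited by the authors after RMA processing (per the submitters' processing notes, without a version). RMA equalizes array distributions, so changes are relative to most genes. Which arrays were normalized together, and the genome build, are not given in the sources used here. Values ran from 2.74 to 15.4. Signal over background was not used here, and the number of arrays limits the precision. Of 31042 probe sets, leaving out controls, 9780 were unnamed here, 436 had several symbols and 20826 had 1, brought up to date by gene identifier (20758) or accession (2) where possible (66 not). For each of 14217 genes the probe set of highest mean was used, with no filter.

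limma 3.58.1 in R 4.3.3 (lmFit with 1 mean per dose over all 20 arrays, contrasts.fit, eBayes) gave 14 residual and 4.77 prior degrees of freedom. P-values were Benjamini-Hochberg adjusted over all genes and called under 0.05. On simulated data the comparison recovered 62% of 50 genes with a log2 change of 0.5 and 100% with a change of 1, and made 4 false calls in 14217 genes. Those data had independent normal noise and 50 genes changed at each of 0.5, 1, 1.5 and 2 at once, which eases the adjusted threshold. The rates therefore do not carry over to the real arrays, where Scd at -2.29 was not called.

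The comparison was proposed, and the 31 gene lists (663 of 754 entries measured) and the genes named in advance were chosen, with earlier results of these data known. Named genes were up to 15 called per direction with groups that do not overlap, filled to 8 by smallest p, up to 4 called or otherwise 2 members of each list, called genes between neighbouring doses, and 16 genes named in advance, of which 14 were measured; 69 in all, with others named because a sentence turned on them after their values were seen. Alternatives covered filtering, probe set use, normalization, eBayes options, array weights, arrays in the fit, a GAPDH covariate, a replicate block and left-out arrays.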

Additional observations from a re-analysis of the deposited data

Results flagged for a closer look

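A probe set without a single gene symbol, 1371076_at, carried a signal outside the gene comparison and above the control level. It is annotated to several genes and so is not named. Its values were 12.18, 11.47, 10.59, 11.92 and 12.41 in control and 13.39, 13.75 and 14.03 at 248.6 mg/kg, and the groups did not overlap. It rose by 2.01 ± 0.28 on the log2 scale, or 4.03-fold (limma, adjusted p = 0.00479 over 31042 probe sets). Its changes against the same controls were 1.03, 1.35, 2.24 and 2.59 at 62.3, 124.5, 497.3 and 994.6 mg/kg. Among the 69 named genes none had a control array that stood apart by Dixon's test, where chance gives about 1 in 20. Many of these genes were named by values that depend on the same control arrays, so that rate need not hold for them.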

How the results depend on the processing

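Of the 8 genes called, array weights gave 20 (18 higher, 2 lower), among them all 8. The fit on only the 8 arrays gave 3 (3 higher, 0 lower) and the GAPDH covariate 4 (4 higher, 0 lower). The count of lower genes was 0 with probe sets averaged per gene, with quantile normalization, with median centring and without the 124.5 mg/kg array with the largest GAPDH difference, a setting added after seeing the data, and 3 without the arrays of 994.6 mg/kg. Leaving out each array in turn gave 3 to 9 genes (3 to 8 higher, 0 to 1 lower), with 3 without treated replicate 3, 4 without control replicate 4, 5 without control replicate 1, 3 or 5 or treated replicate 1, 6 without treated replicate 2 and 9 without control replicate 2. Between 497.3 and 248.6 mg/kg the count of 1 became 0 with a filter on the lowest 50% of genes, quantile normalization, array weights, the replicate block or without that 124.5 mg/kg array, and ran from 0 to 12 over left-out arrays. Between 248.6 and 124.5 mg/kg, and against the mean of the neighbours, it was 0 for every left-out array. The GAPDH difference ran from -0.45 to -0.32 over left-out arrays and that of beta-actin from -0.54 to -0.17, with too few splits in some to reach the threshold.

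Replicate numbers did not pair the arrays, since same-numbered deviations correlated at -0.04, 0.11 and -0.25. With the replicate block, fitted without control replicates 4 and 5, 7 genes were called, 5 of the 8 among them, with 2 lower.

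Small changes turned sign. Por (0.01; -0.22 to 0.15 over left-out arrays) was -0.03 with quantile normalization, -0.02 with the block, -0.02 with the GAPDH covariate, -0.03 without control replicate 3, -0.06 without control replicate 5 and -0.22 without treated replicate 2. Tnfaip3 (0.03; -0.07 to 0.12) was -0.04 without control replicate 1 and -0.07 without treated replicate 1. Nr1i3 (0.04; -0.13 to 0.13) was -0.13 without control replicate 3 and 0 without treated replicate 1. Angptl8 (0.18; -0.20 to 0.39) was -0.20 without treated replicate 3. The cause was not tested in any of these. For the 69 named genes, 1295 of the values under other settings kept direction and call, 49 lost a call, 11 gained one and 11 turned sign.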

Other observations

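A second called probe set without a gene symbol, 1395845_at, fell by 1.12 ± 0.18 (limma, adjusted p = 0.0314 over 31042 probe sets). Its values were 7.15, 6.34, 6.32, 7.16 and 6.48 in control and 5.66, 5.38 and 5.67 at 248.6 mg/kg, without overlap, and its changes against the same controls were -0.72, -0.67, -1.14 and -1.09 at 62.3, 124.5, 497.3 and 994.6 mg/kg.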
